A study of Rattus norvegicus with 24 samples.

Results

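The rat genes described here build, fold, export and clear proteins of the endoplasmic reticulum (ER): chaperones, disulphide isomerases, sensors and transcription factors of the unfolded protein response, the translocation channel with its signal peptidase, and ER-associated degradation. They were taken by symbol from a list of 42 genes, with a mean of at least 10 normalised counts as the condition. Of the 42 genes, 38 had a row and all 38 passed the condition, out of 26404 identifiers in the tables, and Derl1, Derl2, Syvn1 and Ssr3 were not analysed here. By role they comprised 10 chaperones and cochaperones, 6 lectin chaperones and disulphide isomerases, 6 sensors and transcription factors, 6 degradation genes and 10 translocation and signal peptidase genes.

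INS-1 is a line of insulin-secreting cells grown from a rat insulinoma, and GLP-1 is an incretin hormone that acts on the beta cell through a receptor coupled to cyclic AMP. The study exposed INS-1 cells to GLP-1 (100 nM), to BMS-21 (1 µM; a compound known here by its code name alone) or to the vehicle DMSO (Control), and sequenced RNA after 6 h and after 1 h, with 4 libraries in each of the 6 groups. All 6 groups had shared the same handling beforehand, 90 min in medium with 3 mM glucose followed by fresh medium with 11 mM glucose, so that Control at 6 h and Control at 1 h also differ in time since the glucose step. The model is 1 tumour cell line, and nothing in the labels says that the replicates came from separate cultures, so that p-values cover the spread from library to library alone, which may be technical.

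Beta cells make proinsulin at a high rate, and its signal peptide, its passage through the Sec61 channel and its disulphide bonds make it a large client of this machinery. When unfolded protein accumulates, the ER membrane proteins IRE1 (Ern1), PERK (Eif2ak3) and ATF6 (Atf6) signal to the nucleus, and the transcription factors XBP1 and ATF6 bind short elements in the promoters of chaperone and degradation genes. The ER stress response elements ERSE and ERSE-II join a site for the factor NF-Y (CCAAT) to the box CCACG that ATF6 and XBP1 recognise.

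Those elements are shown because XBP1 and ATF6 are known to act through them. RefSeq promoter windows of the assembly GRCr8, from 250 bases before to 50 bases after the gene start, were matched by symbol for 32 of the 38 genes, with the first window used where Hyou1 has 2. ERSE (CCAAT and CCACG in that order with any 9 bases between them, both strands) was found in 8 of the 32 windows, 25%, against 22 of 33469 windows of the same length in the whole table, 0.0657%. ERSE-II (ATTGG and CCACG with any 1 base between them, both strands) was found in 3 of the 32, 9.38%, against 0.0508% of all windows. The shorter box CCACG, which both elements contain, stood in 75% of the members' windows and in 31.6% of all windows. The UPR element core TGACGTGG was found in Hyou1 alone among the members, where it overlaps an ERSE-II, and in 0.595% of all windows. The cyclic AMP response element TGACGTCA was found in no member's window and in 1.83% of all windows. With 32 windows, finding none lies near that share. Only this exact form was searched, so other forms of the element and sites outside the windows were not covered. A match is a description of letters and not a measured binding site. These elements are known from promoters of chaperone and degradation genes, which are kinds of gene listed here. A higher share among the members was therefore largely fixed in advance by the choice of the list. No share was tested, and the windows of the whole table include those of the members.

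The stretches that hold ERSE or ERSE-II follow, each 5′ to 3′ on the strand of its gene, with the element in capitals and up to 15 bases on either side, none past the gene start. The 2 longer stretches, of Hsp90b1 and Hyou1, each hold 2 elements. Hspa5, Xbp1, Canx, Dnajc3 and the first element of Hsp90b1 carry ERSE in the forward orientation, and Calr, Creld2, Derl3 and the second element of Hsp90b1 carry it reversed, so that the capitals then begin with CGTGG. Dnajb11 and Herpud1 carry ERSE-II in the forward orientation, and both elements of Hyou1 are ERSE-II reversed.
Hspa5: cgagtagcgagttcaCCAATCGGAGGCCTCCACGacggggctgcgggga
Hsp90b1: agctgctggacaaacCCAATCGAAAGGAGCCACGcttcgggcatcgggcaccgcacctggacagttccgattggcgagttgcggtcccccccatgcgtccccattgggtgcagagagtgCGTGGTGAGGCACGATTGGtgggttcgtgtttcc
Hyou1: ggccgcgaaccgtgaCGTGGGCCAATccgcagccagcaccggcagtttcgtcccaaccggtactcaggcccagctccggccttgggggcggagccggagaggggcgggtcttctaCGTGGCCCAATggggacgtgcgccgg
Dnajb11: atgtcccaggcggcgATTGGCCCACG
Dnajc3: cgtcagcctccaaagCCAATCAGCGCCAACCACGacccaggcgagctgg
Creld2: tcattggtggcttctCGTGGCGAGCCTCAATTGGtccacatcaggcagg
Calr: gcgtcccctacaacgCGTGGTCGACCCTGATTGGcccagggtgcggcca
Canx: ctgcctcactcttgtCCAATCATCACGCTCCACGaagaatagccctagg
Xbp1: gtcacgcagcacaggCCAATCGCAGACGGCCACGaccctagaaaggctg
Herpud1: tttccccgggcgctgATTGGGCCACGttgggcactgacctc
Derl3: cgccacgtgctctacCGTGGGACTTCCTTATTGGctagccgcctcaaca

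In GRCr8 the stretch of Hspa5 lies at chr3:38452958-38453006 (forward strand), that of Hsp90b1 at chr7:23012332-23012484 (reverse strand) and that of Hyou1 at chr8:53602679-53602819 (forward strand). Dnajb11 lies at chr11:91672800-91672825 (reverse strand), Dnajc3 at chr15:102432519-102432567 (forward strand), Creld2 at chr7:121789224-121789272 (forward strand) and Calr at chr19:40213120-40213168 (forward strand). Canx lies at chr10:35158054-35158102 (reverse strand), Xbp1 at chr14:84604543-84604591 (forward strand), Herpud1 at chr19:10614806-10614846 (reverse strand) and Derl3 at chr20:12766586-12766634 (reverse strand). These coordinates belong to GRCr8 and not to Rnor_5.0, the build that the submitters name for the reads.

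The libraries held 10667350 to 13148970 reads assigned to genes. Levels are given as RPM, reads per 1000000 in the library, after TMM scaling across all 24 libraries, in the order of replicates 1 to 4; they are not divided by transcript length and serve to compare libraries, not genes. RPM is a share of the RNA, so fewer cells of a type and less RNA per cell cannot be told apart. All 12 beta-cell markers found reached 1 RPM in every group, with Ins1 at 8618 to 11711 RPM, and of 13 markers of other pancreatic, ductal, stromal and blood cells only Gcg, Ghrl and Sox9 reached 1 RPM in any library (the acinar marker Cela1 was at 0 throughout, and the other 9 at 0 to 0.779 RPM). Summed beta-cell markers were 17848 to 19029 RPM with GLP-1 and 18204 to 21191 RPM with BMS-21 at 6 h, against 16623 to 17466 RPM in Control. Single beta-cell markers went either way at 6 h: 6 of the 12 with GLP-1 and 4 with BMS-21, Ins1 among them, lay wholly above Control, and 3 with each agent lay wholly below it. The 3 lower ones were Slc2a2, at 1080.3 to 1163 RPM with GLP-1 and 1076 to 1171 RPM with BMS-21 against 1732 to 1841 RPM in Control, Neurod1, at 99.8 to 115 and 93.5 to 119 against 144 to 163 RPM, and Nkx6-1, at 50.4 to 52.7 and 47.8 to 55.3 against 58.9 to 67.3 RPM, in the same order of groups. Summed other-cell markers were 12.7 to 14.0 RPM with GLP-1 and 13.1 to 18.6 RPM with BMS-21, against 11.2 to 12.8 RPM in Control, and the part of these markers in the results was not tested. On the first principal component of all genes, with 25.9% of the variance, replicates 1 and 2 of all 6 groups lay at or below -3.87, and replicates 3 and 4 at or above 3.51. Results are therefore also given within each of these pairs.

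At 6 h GLP-1 raised 32 of the 38 genes and lowered none, against Control (limma, Benjamini-Hochberg adjusted p under 0.05 over all genes). Over all 12641 genes tested, 16.2% were higher and 15.6% lower, 31.7% in all. The median change of the 38 genes was 0.34 on the log2 scale (1.27-fold), with a range of -0.02 to 0.78, while the median of all genes lay between -0.008 and 0.002 in each comparison given here. The 32 raised genes spanned changes of 0.13 to 0.78 (1.09-fold to 1.72-fold), and none reached 2-fold. In 30 of the 38 genes the GLP-1 and Control libraries did not overlap, against 30.6% of all genes. At an adjusted p under 0.01, 24 of the 38 passed, against 21.2% of all genes. The 6 genes that did not pass at 0.05 were Atf6, Dnajb9, Edem2, Herpud1, Sec62 and Sil1.

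BMS-21 at 6 h also raised 32 of the 38 genes and lowered none, against the same 4 Control libraries. Among all 12640 genes tested, 16.8% were higher and 16.8% lower, 33.6% in all. The median change of the 38 genes was 0.39 (1.31-fold), with a range of -0.03 to 0.89, and the raised genes spanned changes of 0.13 to 0.89. In 32 of the 38 genes the BMS-21 and Control libraries did not overlap, against 32.2% of all genes. At an adjusted p under 0.01, 31 passed, against 23.6% of all genes. At 0.05, Atf6, Dnajb9, Edem2, Herpud1, Sec62 and Sil1 did not pass. Fold changes are on the scale of log2(normalised count + 1). Both comparisons use the same controls, so the values of the agents are set side by side and do not support each other.

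**Figure D1:**
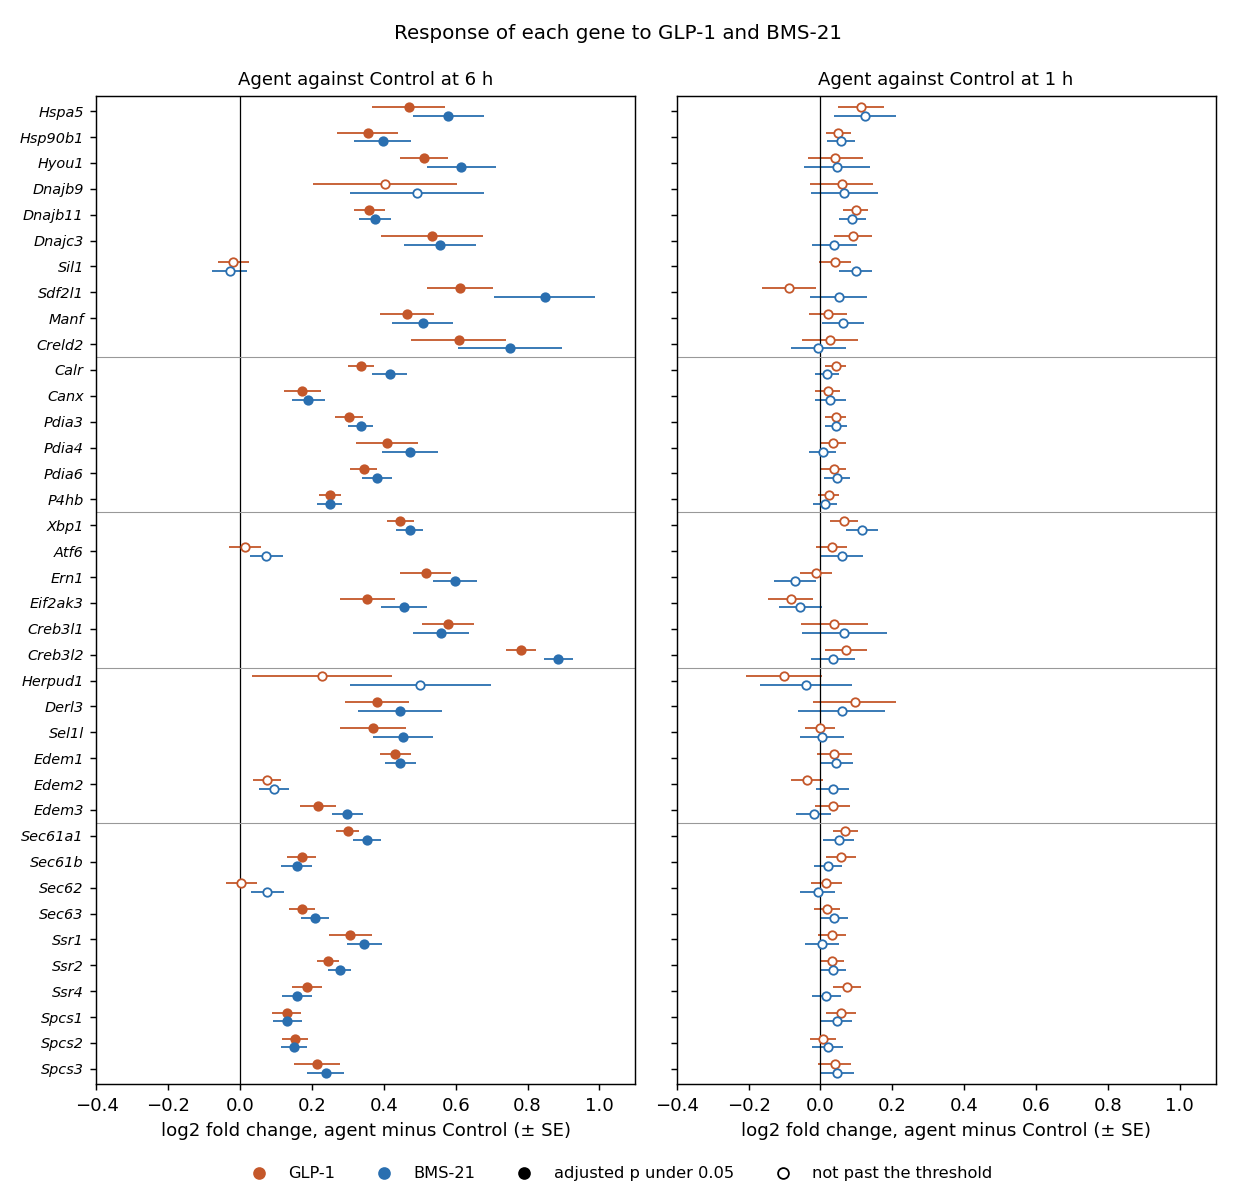
Log2 fold change (± SE, limma, n = 4 libraries per group) of each of the 38 genes for GLP-1 and BMS-21 against Control at 6 h (left) and 1 h (right), ordered by role; filled points have an adjusted p under 0.05. At 6 h all but 6 genes per agent lie right of 0 with filled points, with Creb3l2 at 0.78 and 0.89, and at 1 h every point is open and lies between -0.10 and 0.12.

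Among the chaperones, 8 of 10 rose with each agent at 6 h. Hspa5 encodes BiP, the Hsp70 chaperone of the ER lumen and the regulator of the stress sensors. Its level at 6 h was 4029, 3859.7, 4909 and 4599 RPM with GLP-1, 4334, 4180.1, 5254 and 5049 RPM with BMS-21 and 2905, 2869.7, 3489.5 and 3318 RPM in Control. All 8 treated libraries lay above all 4 Control libraries, by 1.39-fold with GLP-1 (0.47 ± 0.10, adjusted p = 0.0133) and 1.49-fold with BMS-21 (0.58 ± 0.10, adjusted p = 0.00323). Sdf2l1, an ER protein that acts with the BiP chaperone complex, measured 59.3, 55.3, 77.8 and 69.2 RPM with GLP-1, 64.7, 63.5, 94.2 and 88.7 RPM with BMS-21 and 41.8, 39.1, 45.6 and 43.8 RPM in Control. It was raised 1.53-fold with GLP-1 (0.61 ± 0.09, adjusted p = 2.92e-04) and 1.80-fold with BMS-21 (0.85 ± 0.14, adjusted p = 0.0025), with no overlap with Control, and the lowest treated library (replicate 2 with GLP-1) still exceeded the highest Control library. Creld2, an ER protein induced by unfolded protein, measured 175, 183, 235 and 238 RPM with GLP-1, 197, 192, 266 and 267 RPM with BMS-21 and 124, 124, 150.0 and 146 RPM in Control. The groups again did not overlap, with increases of 1.52-fold with GLP-1 (0.61 ± 0.13, adjusted p = 0.0123) and 1.68-fold with BMS-21 (0.75 ± 0.14, adjusted p = 0.00759). In all 3 genes replicates 3 and 4 were higher than replicates 1 and 2 in every group at 6 h.

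Among the cofactors of BiP, Hyou1 rose and Sil1 did not pass. Hyou1, a large Hsp70 relative that exchanges nucleotide on BiP, rose by 0.51 ± 0.07 with GLP-1 and 0.61 ± 0.10 with BMS-21 on the log2 scale. Sil1, the other exchange factor of BiP, did not pass, at -0.02 ± 0.04 with GLP-1 and -0.03 ± 0.05 with BMS-21. Of the J-domain cochaperones, Dnajb11 rose by 0.36 ± 0.04 and 0.38 ± 0.04, and Dnajc3, which also restrains PERK, rose by 0.53 ± 0.14 and 0.56 ± 0.10, with GLP-1 and BMS-21 in that order. Dnajb9, a BiP cochaperone that holds IRE1 inactive, differed by 0.40 ± 0.20 with GLP-1 (adjusted p = 0.189) and 0.49 ± 0.19 with BMS-21 (adjusted p = 0.0922). Its level was 84.6, 87.0, 130.3 and 113 RPM with GLP-1, 97.2, 90.0, 132 and 121 RPM with BMS-21 and 64.2, 66.4, 92.6 and 90.8 RPM in Control. The 2 higher libraries of each group were replicates 3 and 4, and treated and Control libraries overlapped; in the fit blocked by replicate number, its adjusted p was 6.86e-17 with GLP-1 and 1.65e-13 with BMS-21. Hsp90b1, the Hsp90 chaperone of the ER, rose by 0.35 ± 0.09 with GLP-1 and 0.40 ± 0.08 with BMS-21. Manf, a small ER and secreted protein induced by ER stress, rose by 0.46 ± 0.08 and 0.51 ± 0.08, again with GLP-1 before BMS-21. The Dnajc3 call with GLP-1 was lost when 1 of 5 libraries was left out, replicates 3 or 4 of GLP-1 or replicates 1, 2 or 4 of Control (adjusted p 0.0515 to 0.0753).

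**Figure D2:**
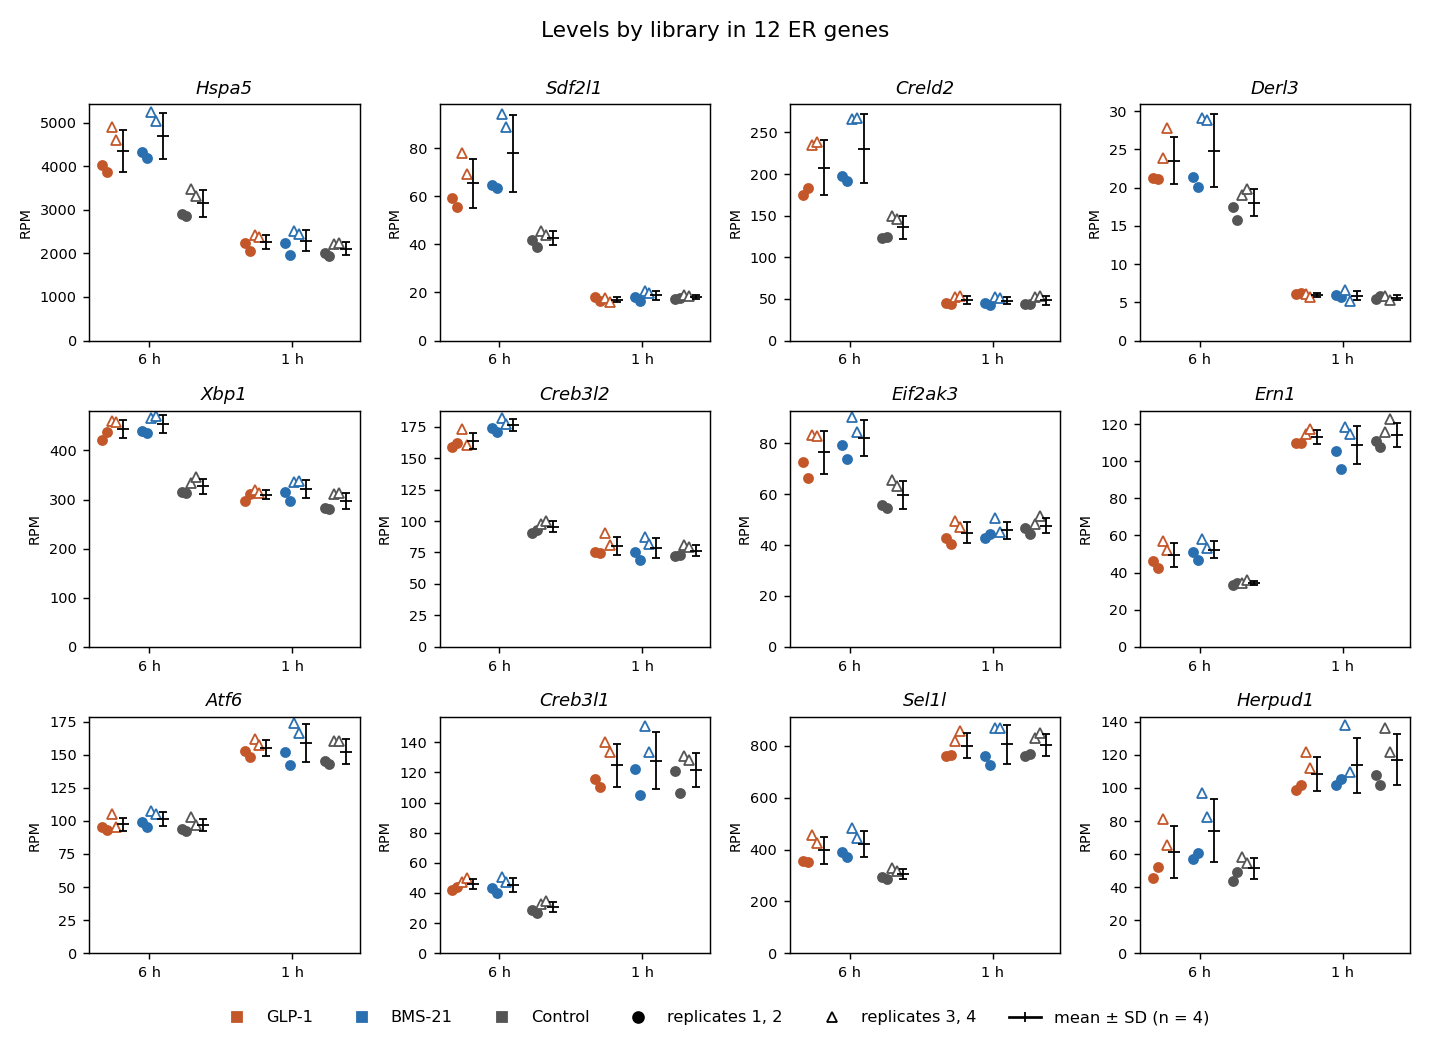
RPM in each library for 12 genes, with groups GLP-1, BMS-21 and Control at 6 h (left) and at 1 h (right); filled circles are replicates 1 and 2, open triangles replicates 3 and 4, bars the mean ± SD (n = 4). Hspa5, Sdf2l1, Creld2 and Derl3 are higher at 6 h than at 1 h in every treatment, Ern1, Atf6, Creb3l1, Sel1l and Herpud1 are lower, and at 6 h the treated libraries of Creb3l2 (159 to 182 RPM) stand clear of Control (90.5 to 100.3 RPM).

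All 6 lectin chaperones and disulphide isomerases rose with each agent at 6 h. Calr (calreticulin) and Canx (calnexin) hold glycoproteins through their sugar chains. Calr rose by 0.34 ± 0.04 with GLP-1 and 0.42 ± 0.05 with BMS-21 on the log2 scale, and Canx by 0.17 ± 0.05 and 0.19 ± 0.05. Canx was the smallest increase of the 6, and its treated and Control libraries overlapped with both agents; leaving out replicate 4 of GLP-1 or replicate 1 of Control at 6 h, its adjusted p with GLP-1 was 0.0508 to 0.0516. Among the isomerases, which form and reshuffle disulphide bonds, Pdia4 rose most, by 0.41 ± 0.09 with GLP-1 and 0.47 ± 0.08 with BMS-21. Pdia3, the partner of calnexin and calreticulin, rose by 0.30 ± 0.04 and 0.34 ± 0.04, Pdia6 by 0.34 ± 0.04 and 0.38 ± 0.04, and P4hb, the classical isomerase, by 0.25 ± 0.03 and 0.25 ± 0.03, in the same order of agents. The adjusted p of P4hb was 1.51e-06 with GLP-1 and 5.12e-06 with BMS-21, with standard errors of 0.03 for both agents.

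Of the 6 sensors and transcription factors, 5 rose with each agent at 6 h and Atf6 did not pass. Creb3l2 encodes a membrane-bound transcription factor of the ATF6 type that is released by cleavage in the Golgi, and it had the largest increase of the 38 genes with either agent. Its level at 6 h was 159, 162, 173 and 160.4 RPM with GLP-1, 174, 171, 182 and 177 RPM with BMS-21 and 90.5, 93.0, 97.6 and 100.3 RPM in Control. The groups were far apart, 1.72-fold with GLP-1 (0.78 ± 0.04, adjusted p = 5.49e-12) and 1.85-fold with BMS-21 (0.89 ± 0.04, adjusted p = 2.00e-13). Its relative Creb3l1, whose library values were chosen for display after they were seen, measured 42.2, 43.9, 47.0 and 49.8 RPM with GLP-1, 43.1, 40.3, 50.3 and 47.2 RPM with BMS-21 and 28.8, 26.9, 32.6 and 34.6 RPM in Control. Creb3l1 was raised 1.49-fold with GLP-1 (0.58 ± 0.07, adjusted p = 3.08e-06) and 1.47-fold with BMS-21 (0.56 ± 0.08, adjusted p = 1.47e-05), with no overlap. Xbp1, the transcription factor whose messenger IRE1 splices, measured 421, 437, 459 and 458 RPM with GLP-1, 439.8, 435, 466 and 471 RPM with BMS-21 and 315, 313, 333 and 345 RPM in Control. All treated libraries exceeded all Control libraries, by 1.36-fold with GLP-1 (0.45 ± 0.04, adjusted p = 6.53e-09) and 1.39-fold with BMS-21 (0.47 ± 0.04, adjusted p = 2.02e-09). The counts are per gene and do not separate spliced from unspliced Xbp1.

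Of the 3 classical sensors, Ern1 and Eif2ak3 rose with each agent at 6 h. Ern1 (IRE1) measured 46.5, 42.4, 56.9 and 52.1 RPM with GLP-1, 51.2, 46.6, 58.0 and 53.5 RPM with BMS-21 and 33.3, 34.2, 34.2 and 36.2 RPM in Control, with no overlap and increases of 1.43-fold (0.52 ± 0.07, adjusted p = 1.08e-05) with GLP-1 and 1.51-fold (0.60 ± 0.06, adjusted p = 8.51e-08) with BMS-21. The Control libraries of Ern1 lay close together, while replicates 3 and 4 were the higher libraries with both agents. Eif2ak3 (PERK) measured 72.8, 66.3, 83.4 and 82.9 RPM with GLP-1, 79.5, 73.6, 90.2 and 84.5 RPM with BMS-21 and 55.6, 54.7, 65.7 and 63.1 RPM in Control. It was raised 1.28-fold with GLP-1 (0.35 ± 0.08, adjusted p = 0.00256) and 1.37-fold with BMS-21 (0.46 ± 0.07, adjusted p = 2.34e-05), again without overlap. Atf6 measured 95.5, 93.1, 105 and 95.6 RPM with GLP-1, 98.9, 95.5, 107 and 105 RPM with BMS-21 and 93.9, 92.5, 103 and 97.1 RPM in Control. These ranges overlapped, and the changes were 0.01 ± 0.04 with GLP-1 (adjusted p = 0.867) and 0.07 ± 0.05 with BMS-21 (adjusted p = 0.249).

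Among the degradation genes 4 of 6 rose with each agent at 6 h. Sel1l, the adaptor of the ubiquitin ligase that retrotranslocates misfolded proteins, measured 356, 351, 456 and 427 RPM with GLP-1, 389, 372, 482 and 443 RPM with BMS-21 and 293, 288, 329 and 318 RPM in Control. It was raised 1.29-fold with GLP-1 (0.37 ± 0.09, adjusted p = 0.019; 0.0518 without Control 6 h replicate 1) and 1.37-fold with BMS-21 (0.45 ± 0.08, adjusted p = 0.00275), and treated libraries did not overlap with Control. Derl3, a derlin of the retrotranslocation complex, measured 21.3, 21.2, 23.9 and 27.8 RPM with GLP-1, 21.3, 20.1, 29.1 and 28.8 RPM with BMS-21 and 17.5, 15.8, 19.1 and 19.8 RPM in Control. Its groups did not overlap, with increases of 1.30-fold with GLP-1 (0.38 ± 0.09, adjusted p = 0.00239) and 1.36-fold with BMS-21 (0.45 ± 0.12, adjusted p = 0.00956). Herpud1, a ubiquitin-like membrane protein that supports the ligase complex, measured 45.8, 52.2, 81.4 and 65.5 RPM with GLP-1, 56.8, 60.5, 96.9 and 82.6 RPM with BMS-21 and 43.8, 49.2, 58.4 and 54.4 RPM in Control. Replicates 3 and 4 were the higher libraries in all 3 groups, most of all with the agents, and the groups overlapped: the change was 0.23 ± 0.20 with GLP-1 (adjusted p = 0.444) and 0.50 ± 0.20 with BMS-21 (adjusted p = 0.102). In the fit blocked by replicate number, the adjusted p of Herpud1 was 5.26e-05 with GLP-1 and 5.47e-09 with BMS-21. The library values of Sel1l, Derl3 and Herpud1 were chosen for display after they were seen.

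The 3 Edem genes encode proteins that trim mannose to mark glycoproteins for disposal, and 2 of them rose. Edem1 rose by 0.43 ± 0.04 with GLP-1 and 0.45 ± 0.04 with BMS-21 on the log2 scale, and Edem3 by 0.22 ± 0.05 and 0.30 ± 0.04. Edem2 differed by 0.07 ± 0.04 with GLP-1 (adjusted p = 0.171) and 0.09 ± 0.04 with BMS-21 (adjusted p = 0.0812) and did not pass. Whether the Edem genes differ from one another in their response was not tested.

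Of the 10 translocation and signal peptidase genes, 9 rose with each agent at 6 h, with a median change of 0.18 for both agents, against 0.47 with GLP-1 and 0.53 with BMS-21 for the 10 chaperones. Sec61a1 forms the pore of the protein channel and rose by 0.30 ± 0.03 with GLP-1 and 0.35 ± 0.04 with BMS-21. Its small subunit Sec61b rose by 0.17 ± 0.04 and 0.16 ± 0.04, in the same order. Of the channel's partners, Sec63, which brings BiP to the pore, rose by 0.17 ± 0.04 with GLP-1 and 0.21 ± 0.04 with BMS-21, whereas Sec62 did not pass, at 0.00 ± 0.04 and 0.08 ± 0.04. The translocon-associated proteins Ssr1, Ssr2 and Ssr4 rose by 0.31 ± 0.06, 0.24 ± 0.03 and 0.19 ± 0.04 with GLP-1, and by 0.35 ± 0.05, 0.28 ± 0.03 and 0.16 ± 0.04 with BMS-21. The signal peptidase subunits Spcs1, Spcs2 and Spcs3, part of the complex that removes signal peptides, rose by 0.13 ± 0.04, 0.15 ± 0.04 and 0.21 ± 0.07 with GLP-1, and by 0.13 ± 0.04, 0.15 ± 0.04 and 0.24 ± 0.05 with BMS-21. Some of these calls ended when 1 library was left out. With GLP-1, Spcs1 lost its call without GLP-1 6 h replicate 1 and without Control 6 h replicate 1, and Spcs3 without replicate 4 of GLP-1 and without replicate 1 or 2 of Control. With BMS-21, Spcs1 lost its call without Control 6 h replicate 1 or BMS-21 6 h replicate 3.

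After 1 h no gene of the 38 passed with either agent in the fit without a replicate block. With GLP-1, 6.58% of 12715 genes passed, the median change of the 38 genes was 0.04, and 1 of them, Dnajb11 (0.10 ± 0.03, adjusted p = 0.0943), had an unadjusted p under 0.05. Its level was 213, 213, 207 and 212 RPM with GLP-1, 219, 197, 208 and 217 RPM with BMS-21 and 197, 197, 196 and 202 RPM in Control, so that the GLP-1 libraries (207 RPM at the lowest) lay above Control (202 RPM at the highest); it was the 1 gene of the 38 whose GLP-1 and Control groups did not overlap, against 10.9% of all genes. With BMS-21, 5.91% of 12697 genes passed, the median change of the 38 genes was 0.04, and Dnajb11, Sil1 and Xbp1 had an unadjusted p under 0.05. Over all genes, 2005 of 12715 with GLP-1 and 1942 of 12697 with BMS-21 had an unadjusted p under 0.05. None of the 38 had BMS-21 and Control groups without overlap, against 10.6% of all genes. edgeR and DESeq2 likewise called none of the 38 in either comparison.

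Hspa5 at 1 h measured 2237, 2061, 2420.5 and 2365 RPM with GLP-1, 2241, 1973, 2513 and 2447 RPM with BMS-21 and 2005, 1945, 2219 and 2244 RPM in Control. Treated and Control libraries overlapped, with changes of 0.11 ± 0.06 for GLP-1 (adjusted p = 0.481) and 0.12 ± 0.09 for BMS-21 (adjusted p = 0.626). Xbp1 at 1 h measured 297, 311, 319 and 313 RPM with GLP-1, 316, 297, 335 and 337 RPM with BMS-21 and 284, 281, 311 and 312 RPM in Control, with changes of 0.07 ± 0.04 for GLP-1 (adjusted p = 0.457) and 0.12 ± 0.04 for BMS-21 (adjusted p = 0.18). In both genes the 2 higher libraries of GLP-1, of BMS-21 and of Control were replicates 3 and 4. The labels do not say whether same-numbered libraries belong together, and the blocked p-values rest on matching them by number. The submitters' sample numbers run through replicate 1 of all 6 groups first, and then through replicates 2, 3 and 4. The order of groups is the same each time. The fits without a block leave any such matching out. With the replicate number as a block, 5 of the 38 genes passed with GLP-1, where 11.9% of all genes did, and 5 with BMS-21, where 12.2% did. Both counts are near the share over all genes. Hspa5, Hsp90b1, Dnajb11 and Sec61a1 were then higher and Herpud1 lower with GLP-1, with an adjusted p of 1.43e-07 for Hspa5 and 0.00806 for Dnajb11. With BMS-21, Hspa5, Hsp90b1, Dnajb11, Sil1 and Xbp1 were then higher, with 8.95e-08 for Hspa5 and 1.23e-04 for Xbp1.

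Among the other sensors and Creb3 factors none passed at 1 h. Creb3l2 measured 75.0, 74.2, 90.4 and 81.1 RPM with GLP-1, 75.5, 68.8, 87.2 and 81.7 RPM with BMS-21 and 72.1, 73.0, 81.3 and 79.1 RPM in Control. Ern1 measured 109.8, 109.8, 114 and 117 RPM with GLP-1, 105, 95.9, 118 and 115 RPM with BMS-21 and 111, 108, 116 and 123 RPM in Control. Eif2ak3 measured 42.9, 40.3, 49.6 and 46.9 RPM with GLP-1, 42.9, 44.5, 50.5 and 45.1 RPM with BMS-21 and 46.8, 44.3, 48.2 and 51.2 RPM in Control. In each of these 3 genes treated and Control libraries overlapped. The changes with GLP-1 were 0.07 ± 0.06 for Creb3l2, -0.01 ± 0.04 for Ern1 and -0.08 ± 0.06 for Eif2ak3, and with BMS-21 0.04 ± 0.06, -0.07 ± 0.06 and -0.06 ± 0.06 in that order. Sdf2l1 measured 17.9, 16.4, 17.6 and 15.9 RPM with GLP-1, 18.2, 16.6, 20.7 and 19.6 RPM with BMS-21 and 17.3, 17.5, 19.1 and 18.5 RPM in Control. Creld2 measured 45.5, 44.0, 52.9 and 53.3 RPM with GLP-1, 44.8, 43.2, 52.3 and 51.1 RPM with BMS-21 and 43.6, 43.8, 51.8 and 53.5 RPM in Control, and treated and Control libraries overlapped in both. For all 38 genes the 95% interval of the 1 h change lay within -0.35 to 0.33 with GLP-1 and within -0.35 to 0.35 with BMS-21, so changes beyond 1.27-fold up or 0.786-fold down were outside every interval.

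BMS-21 was also set against GLP-1 directly, at doses that differ (1 µM and 100 nM). No gene of the 38 passed at 6 h or at 1 h in limma without a replicate block. Over all genes 0.0158% of 12629 passed at 6 h and 0.0% of 12672 at 1 h. The libraries of the agents overlapped in all 38 genes at both times, while they did not overlap in 3.84% of all genes at 6 h and 2.51% at 1 h. An unadjusted p under 0.05 was found for 1 of the 38 at 6 h and 0 at 1 h. Over all genes it was found for 800 of 12629 at 6 h and 432 of 12672 at 1 h. edgeR and DESeq2, likewise without a block, also called 0 of the 38 at either time. At 6 h the median difference, BMS-21 minus GLP-1, was 0.04 on the log2 scale, against 0.002 over all genes, and 33 of 38 genes lay above 0. The share of all genes above 0 was not counted, and the 38 genes were read from the same libraries. The 1 gene with an unadjusted p under 0.05 was Creb3l2, at 0.11 (95% interval 0.03 to 0.19, adjusted p = 0.636). For Hspa5 the difference was 0.11 (95% interval -0.14 to 0.37), for Sdf2l1 0.24 (-0.18 to 0.66) and for Herpud1, the largest, 0.28 (-0.34 to 0.89). The widest intervals therefore still hold differences of over 1.5-fold, and a p that misses the threshold does not show that the agents act alike. With the replicate number as a block in limma 6 of the 38 passed at 6 h, where 1.72% of all genes did, all higher with BMS-21. They were Hspa5 (adjusted p = 2.39e-04), Hyou1 (0.00504), Sdf2l1 (2.73e-04), Creld2 (0.00177), Calr (0.0334) and Herpud1 (3.29e-05). In the blocked edgeR fit Calr did not pass and Creb3l2 did.

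Over time these genes changed in both directions. In Control, 24 of the 38 were higher and 7 lower at 6 h than at 1 h (edgeR quasi-likelihood test, adjusted p under 0.05), while 52.9% of 13114 genes changed, 26.0% upward and 26.9% downward. Within GLP-1 29 were higher and 7 lower, with 59.2% of all genes changed (29.2% upward, 30.0% downward), and within BMS-21 30 were higher and 7 lower, with 61.4% of all genes changed (30.1% upward, 31.3% downward). The median change of the 38 genes was 0.47 within GLP-1, 0.51 within BMS-21 and 0.22 within Control. Since 6 h and 1 h also differ in time since the medium and glucose change, time and that change cannot be told apart. Changes of 2-fold or more that passed were found for 11 of the 38 genes within GLP-1, 11 within BMS-21 and 7 within Control, against 6.52%, 6.94% and 4.54% of all genes in that order.

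**Figure D3:**
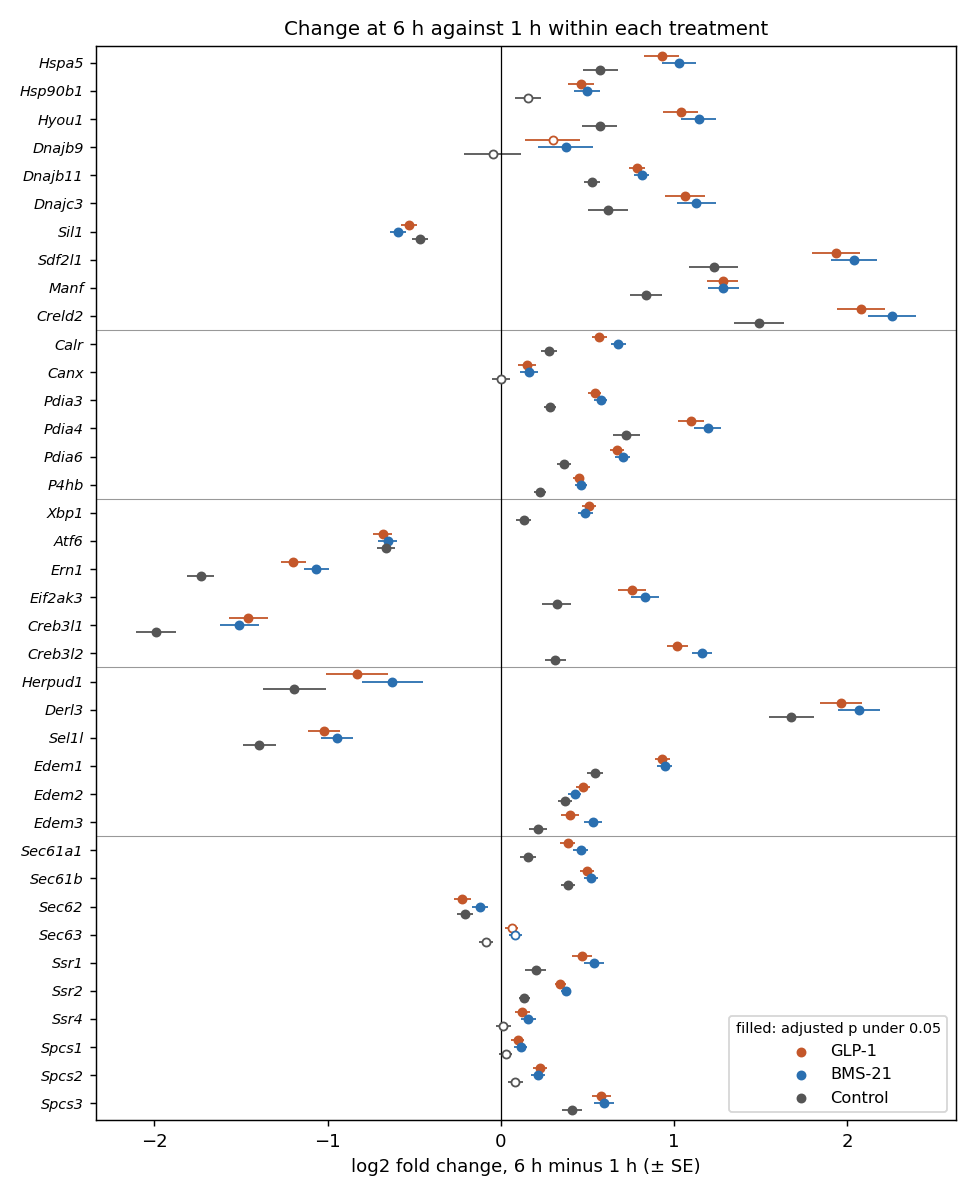
Log2 fold change at 6 h against 1 h (± SE, edgeR, 4 libraries per group) of each gene within GLP-1, BMS-21 and Control; filled points have an adjusted p under 0.05. Derl3 and Creld2 lie between 1.49 and 2.26 in all 3 treatments and Creb3l1, Ern1 and Sel1l between -1.99 and -0.94.

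The largest increases over time were in Derl3, Creld2 and Sdf2l1. Derl3 measured 6.03, 6.21, 6.06 and 5.65 RPM with GLP-1, 5.96, 5.71, 6.59 and 5.18 RPM with BMS-21 and 5.47, 5.88, 5.85 and 5.27 RPM in Control at 1 h, well under every 6 h library. It rose over time by 1.96 ± 0.12 within GLP-1, 2.07 ± 0.12 within BMS-21 and 1.68 ± 0.13 within Control. Creld2 rose by 2.08 ± 0.14, 2.26 ± 0.14 and 1.49 ± 0.14, and Sdf2l1 by 1.94 ± 0.14, 2.04 ± 0.13 and 1.23 ± 0.14, in the same order of treatments. Hspa5 rose by 0.93 ± 0.10 within GLP-1, 1.03 ± 0.10 within BMS-21 and 0.57 ± 0.10 within Control (adjusted p = 6.13e-05). Xbp1 rose by 0.51 ± 0.04 within GLP-1 and 0.49 ± 0.04 within BMS-21, against 0.13 ± 0.04 within Control, where the adjusted p was 0.00902; without Control 1 h replicate 2 or Control 6 h replicate 4 it was 0.0504 to 0.0508. Creb3l2 rose by 1.02 ± 0.06 within GLP-1, 1.16 ± 0.06 within BMS-21 and 0.31 ± 0.06 within Control.

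The 7 genes that were lower at 6 h were Atf6, Creb3l1, Ern1, Herpud1, Sec62, Sel1l and Sil1, in Control and within each agent alike. The 12 libraries of Ern1 at 1 h, given above, all lay above every 6 h library, with changes over time of -1.20 ± 0.07 within GLP-1, -1.06 ± 0.07 within BMS-21 and -1.73 ± 0.08 within Control. Creb3l1 had at 1 h 115, 110.1, 140.4 and 133 RPM with GLP-1, 122, 105, 150.5 and 133 RPM with BMS-21 and 121, 106, 131 and 128 RPM in Control. Its change over time was -1.46 ± 0.11 within GLP-1, -1.51 ± 0.11 within BMS-21 and -1.99 ± 0.12 within Control, the largest decrease of the 38. Sel1l had at 1 h 760.2, 765, 819 and 858 RPM with GLP-1, 761, 724, 870.1 and 869 RPM with BMS-21 and 761, 770.1, 832 and 848 RPM in Control, with changes of -1.02 ± 0.09 within GLP-1, -0.94 ± 0.09 within BMS-21 and -1.39 ± 0.09 within Control. These 3 genes stand side by side with their agent response at 6 h, which was upward, so that the treated libraries at 6 h lay between Control at 6 h and the 1 h libraries; the comparisons share libraries.

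Atf6 at 1 h measured 153, 148, 162 and 158 RPM with GLP-1, 152, 143, 174 and 166 RPM with BMS-21 and 145, 143, 161 and 160.5 RPM in Control. Its change over time was -0.68 ± 0.05 within GLP-1, -0.65 ± 0.05 within BMS-21 and -0.66 ± 0.05 within Control, with no overlap between 6 h and 1 h libraries. Herpud1 at 1 h measured 98.5, 102, 122 and 112 RPM with GLP-1, 101, 105, 138 and 109.6 RPM with BMS-21 and 108, 102, 136 and 122 RPM in Control, with changes of -0.83 ± 0.18, -0.63 ± 0.17 and -1.19 ± 0.18 within GLP-1, BMS-21 and Control in turn. Sil1 changed by -0.53 ± 0.04 within GLP-1, by -0.59 ± 0.04 within BMS-21 and by -0.47 ± 0.04 within Control, and Sec62 by -0.22 ± 0.05, by -0.12 ± 0.05 and by -0.20 ± 0.05. The Sec62 call within BMS-21 was lost without replicate 4 at 1 h or replicates 1 or 2 at 6 h (adjusted p 0.0703 to 0.108).

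In Control, the 7 genes that did not pass over time were Canx, Dnajb9, Hsp90b1, Sec63, Spcs1, Spcs2 and Ssr4. Their changes lay between -0.09 (Sec63) and 0.16 (Hsp90b1). Within GLP-1 the ones that did not pass were Dnajb9 (0.30 ± 0.16, adjusted p = 0.116) and Sec63 (0.06 ± 0.04, adjusted p = 0.158), and within BMS-21 Sec63 did not pass (0.08 ± 0.04, adjusted p = 0.0549). With the replicate number as a block, Hsp90b1, Sec63 and Spcs2 passed in Control (adjusted p = 5.45e-06, 0.00406 and 0.00274), and Dnajb9 and Sec63 within GLP-1 (9.33e-05 and 0.0349), and Sec63 within BMS-21 (0.00414). Dnajb9 within BMS-21 (0.37 ± 0.16, adjusted p = 0.0492) lost its call without replicates 1, 2 or 4 at 1 h or replicates 3 or 4 at 6 h. Small changes over time in Canx and Spcs1 within either agent, and in Ssr4 within GLP-1, also lost their calls without single libraries (replicate 2 at 1 h for Canx within both agents and for Spcs1 and Ssr4 within GLP-1).

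**Figure D4:**
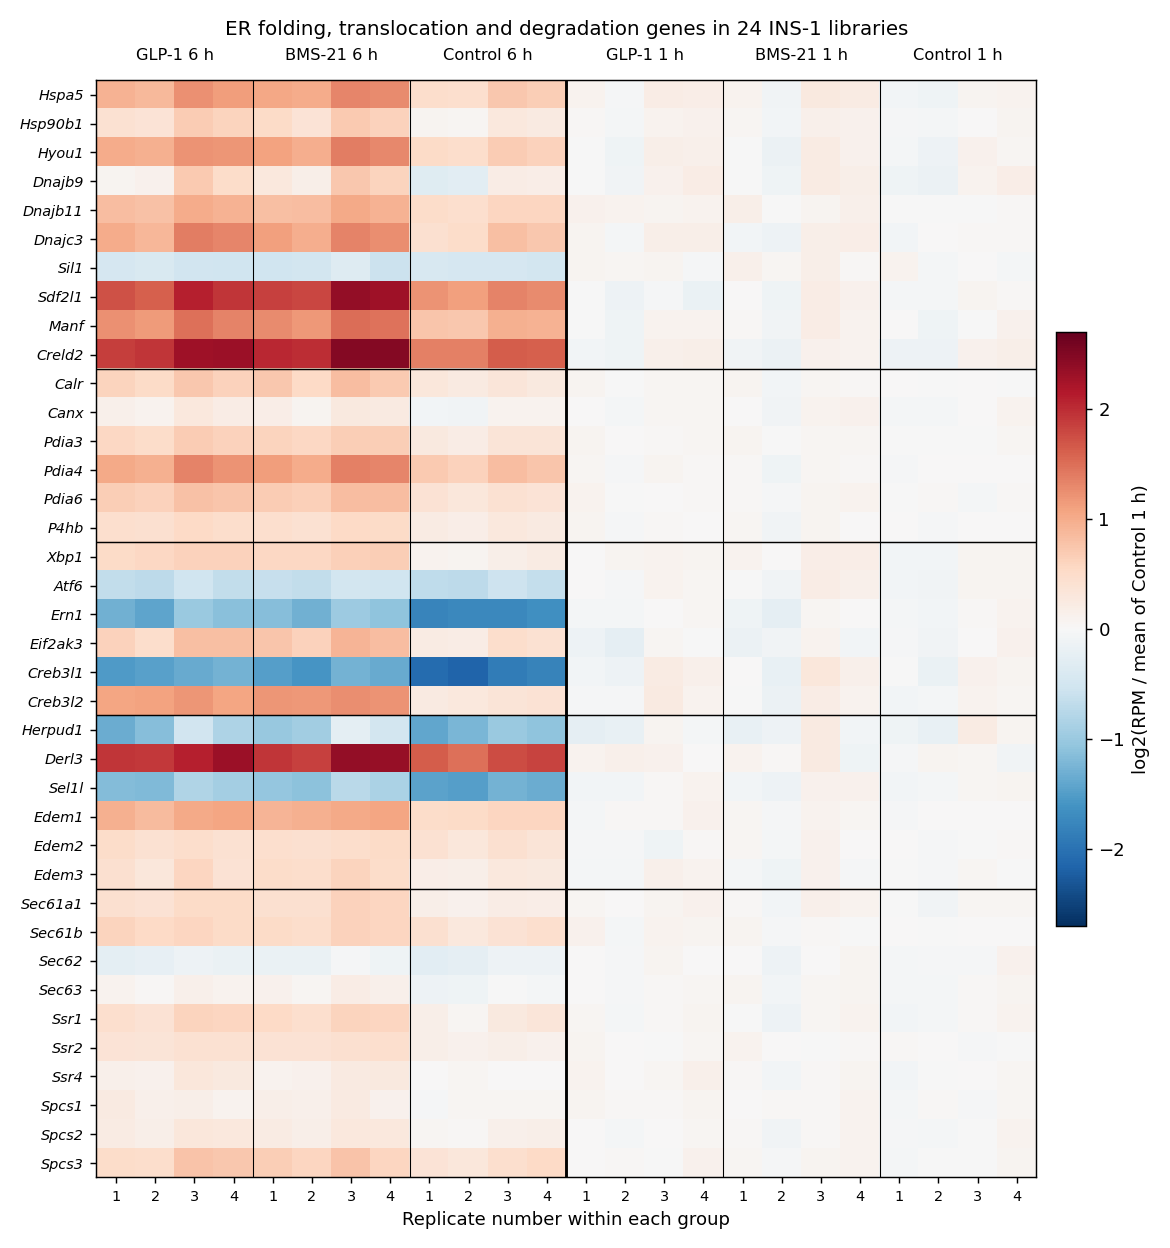
Log2 of RPM over the mean of the 4 Control 1 h libraries for 38 genes (rows, by role) and 24 libraries (columns, replicates 1 to 4 within each group; 6 h groups left, 1 h groups right; red higher, blue lower). The 12 libraries at 1 h are near 0 throughout; at 6 h Derl3, Creld2 and Sdf2l1 are the deepest red, most of all with the agents in replicates 3 and 4, and Creb3l1, Ern1 and Sel1l the deepest blue, most of all in Control.

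The response at 6 h was tested against the response at 1 h in 1 fit over all 24 libraries. With GLP-1 it was larger at 6 h for 18 of the 38 genes and smaller for none, against 8.3% of all genes larger, 9.01% smaller and 17.3% in all. With BMS-21 it was larger for 25 and smaller for none, against 10.8% of all genes larger, 10.9% smaller and 21.7% in all. The median difference of responses was 0.29 with GLP-1 and 0.34 with BMS-21, against medians within the range given above over all genes. Creb3l2 had 0.70 ± 0.08, adjusted p = 2.12e-07 with GLP-1 and 0.84 ± 0.08, adjusted p = 5.44e-09 with BMS-21. Ern1 had 0.54 ± 0.11, adjusted p = 6.24e-04 with GLP-1 and 0.67 ± 0.11, adjusted p = 3.39e-05 with BMS-21, and Xbp1 0.38 ± 0.06, adjusted p = 1.21e-05 and 0.36 ± 0.06, adjusted p = 2.18e-05 in the same order. Hspa5 passed with BMS-21 (0.45 ± 0.14, adjusted p = 0.0246) and not with GLP-1 (0.35 ± 0.14, adjusted p = 0.0924), which is no test of the agents against each other. With GLP-1, Hspa5 did pass in the fit blocked by replicate number and in either replicate pair alone. The Hspa5 call with BMS-21 was lost when any 1 of 7 of the 16 libraries was left out (adjusted p 0.05002 to 0.0590). With the replicate number as a block, 30 genes passed with GLP-1, where 25.4% of all genes did, and 33 with BMS-21, where 29.4% did.

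Within replicates 1 and 2 alone, with 2 libraries per group, 32 of the 38 genes passed at 6 h with GLP-1 (median change 0.29) and 33 with BMS-21 (0.35). Of all genes 30.7% passed with GLP-1 and 30.5% with BMS-21 in that pair. Within replicates 3 and 4 alone, 33 passed with GLP-1 (0.38) and 34 with BMS-21 (0.43), against 26.4% and 32.6% of all genes. Every gene called at 6 h over all 4 replicates had the same sign in both pairs, with either agent. The pairs are parts of the libraries that gave those calls, so this agreement was largely fixed in advance and is no independent support. Of the 38, 31 passed in both pairs with GLP-1 and 33 with BMS-21, and among the genes called over all 4 replicates these were 30 and 31. The share of all genes that passed in both pairs was not counted, so these joint counts have no background. The counts of 30 and 31 also come from the libraries that gave the calls. The change was larger in replicates 3 and 4 for 24 of the 38 genes with GLP-1 and for 23 with BMS-21, and the share over all genes was not counted. Creb3l2 was raised by 0.81 in replicates 1 and 2 and by 0.76 in replicates 3 and 4 with GLP-1, and by 0.91 and 0.86 with BMS-21. Sdf2l1 had 0.51 and 0.72 with GLP-1, and 0.67 and 1.03 with BMS-21. Herpud1 was at 0.08 (adjusted p = 0.403) and 0.38 (0.00238) with GLP-1. Ssr4 did not pass in replicates 1 and 2, with 0.09 for GLP-1 and 0.06 for BMS-21.

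**Figure D5:**
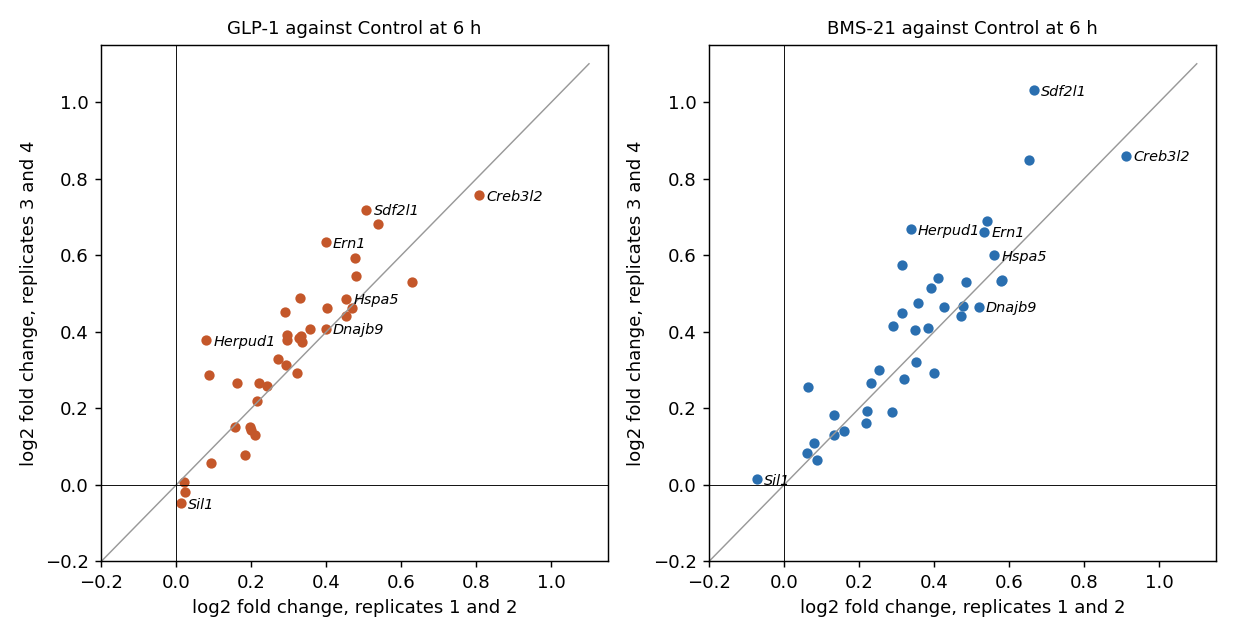
Log2 fold change against Control at 6 h in replicates 1 and 2 (x) and in replicates 3 and 4 (y) for each of the 38 genes, GLP-1 left and BMS-21 right; the line marks equal changes. Most points lie near or above the line, Creb3l2 lies slightly below it in both panels and Sdf2l1 and Herpud1 lie above it.

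The levels themselves differed between the pairs of replicates in every group. Replicates 3 and 4 minus replicates 1 and 2 gave a median over the 38 genes of 0.15 with GLP-1, 0.15 with BMS-21 and 0.11 in Control at 6 h, and of 0.06, 0.13 and 0.08 at 1 h, against medians near 0 over all genes (-0.002 to 0.006). At 6 h 34, 38 and 36 of the 38 genes were higher in replicates 3 and 4, in GLP-1, BMS-21 and Control in turn, with differences of up to 0.60. At 1 h, 1 gene passed within replicates 1 and 2 with GLP-1 (7.1% of all genes) and none with BMS-21 (6.49%). Within replicates 3 and 4, none passed with GLP-1 (4.4% of all genes) and 1 with BMS-21 (3.93%). Over time, the pairs gave 36 and 36 genes within GLP-1 (53.2% and 51.6% of all genes), 37 and 37 within BMS-21 (53.9% and 53.6%), and 33 and 32 within Control (46% and 45.9%), with replicates 1 and 2 before replicates 3 and 4. What separates the pairs is not given in the labels.

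The genes with an ERSE or ERSE-II in their window, 11 of the 32 matched (34.4%, against 0.117% of all windows), are set beside the other 21 as a description. That share has the limit given above for the single elements. The median 6 h change with GLP-1 was 0.38 for the 11 genes and 0.24 for the 21, and with BMS-21 it was 0.47 and 0.28. The median change over time in Control was 0.53 for the 11 and 0.20 for the 21. The translocation and signal peptidase genes with a window are all among the 21. That class had a median 6 h change of 0.18 with each agent, against 0.47 with GLP-1 and 0.53 with BMS-21 for the chaperones. Role and element therefore cannot be told apart in these medians. Both groups span wide ranges: in Control over time the 11 ran from -1.19 (Herpud1) to 1.68 (Derl3), and the 21 from -1.99 (Creb3l1) to 1.23 (Sdf2l1). Creb3l2 and Sdf2l1, with the largest agent responses, have neither element in this window, which says only that these letters are not there.

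Other genes of the secretory pathway, in lists of genes that are not among the 38, were read from the same fits. All 11 measured genes of the oligosaccharyltransferase, which attaches the sugar chain to nascent proteins, rose at 6 h with each agent, with medians of 0.20 for GLP-1 and 0.21 for BMS-21. Ostc rose by 0.38 ± 0.05 and 0.38 ± 0.05, Dad1 and Stt3a by 0.28 ± 0.05 and 0.23 ± 0.03 with GLP-1, and Ddost and Rpn2 by 0.27 ± 0.04 and 0.23 ± 0.04 with BMS-21. Of 10 genes of the COPII coat, which buds vesicles from the ER, 8 rose with each agent and none fell. Sec31a rose by 0.39 ± 0.04 with GLP-1 and 0.41 ± 0.04 with BMS-21, and Sar1a by 0.32 ± 0.03 and 0.33 ± 0.03. At 1 h Sar1a was the gene higher with both agents, 0.13 ± 0.03 with GLP-1 and 0.17 ± 0.03 with BMS-21, and Sec24b was lower with GLP-1 (-0.14 ± 0.04).

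Of 7 genes of the signal recognition particle and its receptor, 4 rose with each agent at 6 h. Srp68 rose by 0.23 ± 0.04 with GLP-1 and 0.26 ± 0.04 with BMS-21, Srpr by 0.17 ± 0.03 and 0.22 ± 0.04, and Srp14 was lower with BMS-21 (-0.12 ± 0.05). Of 14 further folding enzymes 8 rose and 1 fell with GLP-1, and 10 rose and none fell with BMS-21. Ero1l, the oxidase that recharges disulphide isomerases, rose by 0.48 ± 0.04 with GLP-1 and 0.54 ± 0.04 with BMS-21, while its relative Ero1lb fell with GLP-1 (-0.28 ± 0.07). Of 15 further degradation genes 7 rose and 1 fell with GLP-1, and 9 rose and 1 fell with BMS-21. Selk rose by 0.41 ± 0.04 and 0.40 ± 0.04, Vimp by 0.32 ± 0.04 and 0.38 ± 0.04, and the gene that fell was Rnf5, a membrane ubiquitin ligase, at -0.34 ± 0.06 with GLP-1 and -0.42 ± 0.06 with BMS-21. At 1 h none of the genes of the oligosaccharyltransferase, signal recognition particle, folding enzyme and degradation lists passed.

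In the authors' deposited tables, which use the authors' own test, the adjusted p was under 0.05 for 32 of the 38 genes with GLP-1 and 34 with BMS-21 at 6 h, all higher with the agent, and for 0 with either agent at 1 h. Over all genes it was under 0.05 for 3209 with GLP-1 and 3521 with BMS-21 at 6 h, and for 679 and 633 at 1 h. The authors' deposited table of the agents against each other at 6 h gave 0 of the 38, with 1 gene of the 38 without an adjusted p. Over all genes it gave 19. How many of the 26404 identifiers had an adjusted p in the authors' tables was not counted. The counts of the authors' test over all genes therefore have no share beside them.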

How the data were processed

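RNA of INS-1 cells was sequenced from a kit that does not mark strand, so reads of overlapping antisense genes cannot be told apart. The submitters' processing notes name the build Rnor_5.0 and TopHat2 2.0.12, Bowtie2 2.2.3.0, SAMtools 0.1.19.0, Subread, DESeq and DESeq2 1.6.3, without roles; the annotation version is not given in the sources used here. The authors deposited 6 tables, each with the 8 libraries of 2 groups compared at 1 time. Their values per library are the authors' normalised counts, a linear signal made by dividing counts by 1 factor per library and table. Columns of the authors' log2 fold changes and of the authors' p-values come with them. In all libraries 100% of values were whole multiples of 1 step within a tolerance of 0.001, which gave back whole reads, identical from both tables of all 24 libraries.

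Comparisons at 1 time used limma 3.58.1 (trend, robust) in R 4.3.3 on log2(normalised count + 1), keeping genes whose mean over 8 libraries reached 10. Comparisons across times, and of responses, used edgeR 4.0.16 on the recovered reads of all 24 libraries, with TMM scaling, filterByExpr and the quasi-likelihood test; the SE is the log2 change over the root of F. All tests are two-sided, adjusted by Benjamini-Hochberg over all genes tested, with 0.05 as the threshold. DESeq2 1.42.0 was an alternative. Steps were tested on simulated data.

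The 38 members, the further lists and the motifs were chosen with earlier results of these data known. Per-library values were given for Hspa5, Xbp1, Atf6, Ern1, Eif2ak3 and the 3 largest increases at each agent's 6 h comparison; further lists name up to 3 genes with the smallest adjusted p, plus any that went the other way and those called at 1 h, and other genes shown by library were chosen after their values were seen. Same-numbered libraries correlated by 0.125 to 0.406 over 24 pairs, after group means were removed, across 10799 genes (0.068 to 0.241 across 12693 genes with a lower minimum, with 2 pairs at or under 0.1), so a fit blocked by replicate number is given too where it changes a call. Alternatives were pseudocounts, filters, scaling, edgeR, DESeq2, all libraries in 1 fit, the block, each pair of replicates and leaving out each library.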

Additional observations from a re-analysis of the deposited data

Results flagged for a closer look

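The response to each agent differed between 6 h and 1 h by an interaction term (edgeR quasi-likelihood test, adjusted p under 0.05), and each difference below is the 6 h response minus the 1 h response on the log2 scale, with the agent set over Control at each time. With GLP-1, 18 of the 38 genes differed. Among the chaperones the difference was 0.47 for Hyou1, 0.26 for Dnajb11, 0.71 for Sdf2l1 and 0.44 for Manf. Among the lectin chaperones and disulphide isomerases the difference was 0.29 for Calr, 0.26 for Pdia3, 0.37 for Pdia4, 0.30 for Pdia6 and 0.22 for P4hb. Among the sensors and transcription factors the difference was 0.38 for Xbp1, 0.54 for Ern1, 0.43 for Eif2ak3, 0.53 for Creb3l1 and 0.70 for Creb3l2. Among the degradation genes the difference was 0.39 for Edem1. Among the translocation genes the difference was 0.23 for Sec61a1, 0.27 for Ssr1 and 0.21 for Ssr2. Of the 16 libraries, leaving out any 1 of 8 ended the call for Hyou1 (adjusted p 0.0513 to 0.0617), any 1 of 8 that for Creb3l1 (0.0573 to 0.0733), any 1 of 4 that for Ssr1 (0.0520 to 0.0569) and either of 2 that for Manf (0.0503 to 0.0510).

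With BMS-21, 25 of the 38 genes differed. For the chaperones it was 0.45 for Hspa5, 0.34 for Hsp90b1, 0.57 for Hyou1, 0.29 for Dnajb11, 0.51 for Dnajc3, 0.81 for Sdf2l1, 0.44 for Manf and 0.77 for Creld2. For the lectin chaperones and disulphide isomerases it was 0.40 for Calr, 0.29 for Pdia3, 0.47 for Pdia4, 0.34 for Pdia6 and 0.24 for P4hb. For the sensors and transcription factors it was 0.36 for Xbp1, 0.67 for Ern1, 0.51 for Eif2ak3, 0.48 for Creb3l1 and 0.84 for Creb3l2. For the degradation genes it was 0.45 for Sel1l, 0.40 for Edem1 and 0.31 for Edem3. For the translocation genes it was 0.30 for Sec61a1, 0.17 for Sec63, 0.34 for Ssr1 and 0.24 for Ssr2. Leaving out any 1 of 11 of the 16 libraries ended the call for Creb3l1 (adjusted p 0.0510 to 0.101), any 1 of 9 that for Dnajc3 (0.0511 to 0.0697), any 1 of 7 that for Hspa5 (0.05002 to 0.0590), any 1 of 6 that for Hsp90b1 (0.0553 to 0.0643) and any 1 of 4 that for Sec63 (0.0534 to 0.0646). All these differences were above 0. Both agents' differences share the same 8 Control libraries. No library stood apart within a group by Dixon's test among the 12 genes plotted by library, over 72 groups of 4; chance alone flags about 1 in 20 groups.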

How the results depend on the processing

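No called result changed direction under any alternative run. At 6 h the count of 32 genes called with each agent lay between 24 and 34 with GLP-1 and 29 and 34 with BMS-21, the lowest with GLP-1 at adjusted p under 0.01 and the lowest with BMS-21 under scaling by library totals. That scaling moved the median of all genes by -0.05 with GLP-1, and 29 genes were called with each agent. Leaving out each library gave 27 to 32 genes with GLP-1 and 31 to 32 with BMS-21 at 6 h, 0 with GLP-1 and 0 to 1 with BMS-21 at 1 h (1 without BMS-21 1 h replicate 2), and 0 between agents. It gave 33 to 36 over time within GLP-1, 35 to 37 within BMS-21 and 30 to 32 within Control, and 14 to 25 and 20 to 27 for the changed responses to GLP-1 and BMS-21.

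With the replicate block, which matches libraries by number, 5 genes were called at 1 h with GLP-1 (4 in edgeR) and 5 with BMS-21 (5 in edgeR). Of all genes 11.9% and 12.2% were called in those blocked limma fits, so both counts are near that share. Between BMS-21 and GLP-1 at 6 h the block gave 6 genes (6 in edgeR), against 1.72% of all genes in limma. The 2 sets differ: Calr passed in the limma block alone and Creb3l2 in the edgeR block alone. For the changed responses to GLP-1 and BMS-21 it gave 30 and 33, against 25.4% and 29.4% of all genes. Within single replicate pairs, 1 gene was called at 1 h with GLP-1 in replicates 1 and 2, 1 with BMS-21 in replicates 3 and 4, and 1 between the agents at 6 h in either pair, where 37 (replicates 1 and 2) and 39 (replicates 3 and 4) of all genes were called. The cause of these differences was not tested. Scaling by library totals ended the 6 h calls of Canx (adjusted p = 0.0848), Spcs1 and Spcs3 with GLP-1, and of Sec61b (0.0657), Ssr4 (0.0611) and Spcs1 with BMS-21. Replicates 1 and 2 alone ended the 6 h call of Ssr4 with GLP-1 (0.0727) and BMS-21 (0.253), and replicates 3 and 4 alone that of Spcs1 with GLP-1. Dnajb9 and Herpud1 with BMS-21 at 6 h passed in the blocked fit, in DESeq2, in the fit over all 24 libraries and in either replicate pair alone. Calr lost its changed response to GLP-1 in replicates 1 and 2 alone (0.133). Canx, Creld2, Dnajb9, Dnajc3, Hsp90b1, Hspa5 and Sel1l gained a changed response to GLP-1 in the replicate block and in either pair alone. Dnajb9 likewise gained a changed response to BMS-21.

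With 4 libraries per group, the smallest change called at 6 h was 1.09-fold. Depth was 10667350 to 13148970 reads per library, and 3 reads correspond to 0.228 to 0.281 RPM, far under the levels of the 38 genes.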
